A study of Mus musculus with 2 samples.

Results

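Fos, Fosb, Fosl2, Jun, Junb, Jund and Atf3 are 7 of the 32285 genes counted in single-cell RNA libraries of the mouse retina. They were chosen by name as the Fos and Jun family of the transcription factor AP-1 together with Atf3, and the choice was made on measured values of these libraries, in which several of them were known to be higher after light damage. The difference between the libraries is therefore a description and not a finding about the family. Each member is described in 6 classes of droplets, with the question of which member was high in which cell type.

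The control library came from dark-adapted mice and the light damage library from mice that had been dark-adapted in the same way. Dark adaptation ended with 18 h of complete darkness. The light damage group then received 5000 lx of white light for 30 min and recovered for 6 h in dim light. The study's methods place light damage experiments in the early morning and give no hour at which control mice were killed. All mice were labelled wild type and were 6 to 9 weeks old. By the study's methods both groups carried floxed Tgfbr2 alleles without deletion of the gene, on a Balb-C/CD1 background, and were homozygous for the leucine variant of RPE65. Each library pooled the retinae of 3 to 5 mice, digested with papain and collagenase at 8 °C for 45 min and then freed of dead cells with magnetic beads. Each condition is 1 pool and 1 library, so differences between conditions have no replicate check and no test was run. Intervals are exact 95% intervals that cover counting error alone, without the variation among mice, libraries or droplets. The pools also differed in sex: Xist, the RNA of the inactive X chromosome, had 3472 UMIs in control and 1 UMI in light damage high-unspliced rods, so that sex and light damage cannot be told apart.

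AP-1 is a dimer of leucine zipper proteins. Fos proteins do not pair with themselves and need a Jun or other partner, whereas Jun proteins also form pairs of their own, and Fos-Jun dimers bind the TPA response element (TRE). Fos, Fosb, Jun, Junb and Atf3 are immediate early genes, which are transcribed within minutes of a stimulus through serum response factor, CREB and MAP kinases, while Jund is made steadily in most resting cells. Fosl2 encodes Fra-2, a Fos protein that lacks the strong activation domain of Fos. Atf3 is a stress-induced member of the ATF/CREB family that pairs with Jun proteins and often represses its targets. In the retina Fos is known for its circadian rhythm in photoreceptors and for its part in light-induced photoreceptor apoptosis.

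The promoters of the 5 immediate early genes are shown because motifs of factors known to induce such genes can be looked for in them. The sequences are the 150 bases before the RefSeq start on GRCm38.p6, 5′ to 3′ on the strand of the gene. Capitals mark TGACG, the core of the cAMP response element (CRE), on either strand, the TRE variant TGACATCA on either strand and the TATA box TATAAA.
Fos, chr12:85473740-85473889, plus strand: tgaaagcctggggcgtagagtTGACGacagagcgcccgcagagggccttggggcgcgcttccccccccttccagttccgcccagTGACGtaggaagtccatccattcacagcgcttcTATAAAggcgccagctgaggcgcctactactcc
Fosb, chr7:19310046-19310195, minus strand: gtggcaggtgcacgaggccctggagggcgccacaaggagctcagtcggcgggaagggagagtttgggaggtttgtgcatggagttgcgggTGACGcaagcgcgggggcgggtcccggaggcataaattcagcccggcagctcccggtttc
Jun, chr4:95052223-95052372, minus strand: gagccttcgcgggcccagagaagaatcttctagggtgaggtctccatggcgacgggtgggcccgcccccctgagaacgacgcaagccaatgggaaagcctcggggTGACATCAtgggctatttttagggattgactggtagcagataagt
Junb, chr8:84978749-84978898, minus strand: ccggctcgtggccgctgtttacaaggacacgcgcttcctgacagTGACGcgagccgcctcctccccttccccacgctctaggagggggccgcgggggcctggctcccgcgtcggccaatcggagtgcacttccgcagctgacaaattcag
Atf3, chr1:191183334-191183483, minus strand: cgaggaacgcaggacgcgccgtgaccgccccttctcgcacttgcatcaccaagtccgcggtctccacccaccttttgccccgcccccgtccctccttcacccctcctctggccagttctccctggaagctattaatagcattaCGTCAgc

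All 7 members had a RefSeq promoter, and both strands of the 250 bases before each start were searched for 7 motifs. The CRE core TGACG, to which CREB and ATF proteins can bind, was found in 4 members, at 129 and 66 bases before the start of Fos, 60 before that of Fosb, 106 before that of Junb and 7 before that of Atf3. It was present in 17.8% of all 32851 promoters. TGACATCA, a TRE variant bound by Jun and ATF proteins, began 45 bases before the start of Jun and was present in 2.93% of promoters. A TATA box was found in Fos, 33 bases before its start, and in 12.4% of promoters. The TRE TGANTCA, the full CRE TGACGTCA, the STAT motif TTCNNNGAA and the CArG box of serum response factor were found in none of the 7 windows and in 6.75%, 1.55%, 7.02% and 1.47% of all promoters. TGACG also matches inside the full CRE. The windows of Fosl2 and Jund held none of the 7 motifs. The RefSeq starts of Fosl2 and Atf3 lay 671 and 34706 bases inside their GENCODE genes, and that of Jund 1210 bases before its GENCODE gene, so the windows searched are not those of every annotated start. Sites more than 250 bases before a start were not searched, so a motif absent from a window can still lie farther from the gene.

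Droplets were sorted into classes by markers that include no member. Low-unspliced rods, with under 25% unspliced UMIs, numbered 2457 control and 1904 light damage droplets. High-unspliced rods, in which a larger share of RNA is nuclear, numbered 791 and 3086. There were 171 and 103 cone-like droplets, 157 and 310 droplets like retinal pigment epithelium (RPE), 46 and 40 Müller-like droplets, named for the main glia of the retina, and 12 and 45 microglia-like droplets. Their defining markers were present. Rod markers made up 11.9% and 10.5% of UMIs in control and light damage low-unspliced rods and 6.98% and 4.68% in high-unspliced rods. RPE markers made up 8.77% in control RPE-like droplets with 1 of 7 markers at 0, and microglia markers 2.31% in light damage microglia-like droplets. Müller markers made up 1.7% of UMIs in control and 0.567% in light damage Müller-like droplets, less than rod markers in the same droplets. Endothelial markers made up 0.136% and 0.161% there. Rod markers were also found in the other classes: control and light damage droplets held 9.31% and 4.69% of UMIs of the 10 rod markers in the cone-like class, beside 1.02% and 1.31% of cone markers, 5.99% and 0.563% in the microglia-like, 2.5% and 1.09% in the Müller-like and 0.976% and 0.725% in the RPE-like class, with none at 0. This share moved with the libraries, and in light damage cone-like droplets it was near the 4.68% of light damage high-unspliced rods. Its part in the members' values of these classes was not tested. The 10 leading genes of the Müller-like class included the cytokine Lif and Tnfaip6, and those of the microglia-like class Lyz2 and S100a9. The depth differed widely, with a median of 2527.5 against 18678 total UMIs in Müller-like and 2751 against 13790 in cone-like droplets. Levels are given as CPM, the UMIs of a gene scaled by all spliced and ambiguous UMIs of its class, which sum to 32726 UMIs in control microglia-like droplets and to 10705659 in light damage high-unspliced rods. Unspliced UMIs, left out of these sums, were 52.5% of all UMIs in light damage high-unspliced rods. They were 6.59% in light damage low-unspliced rods and 8.44% in light damage RPE-like droplets, so levels compared between classes depend on that choice. Fewer expressing cells and less RNA per cell cannot be told apart in such sums. Free RNA, read from barcodes under 50 UMIs, made up an estimated 0.383% to 2.5% of UMIs in rods and cone-like droplets, 9.59% and 9.30% in RPE-like, 24.5% and 14.0% in Müller-like and 58.8% and 7.23% in microglia-like droplets of the control and light damage libraries. Free RNA of the light damage library itself held 159 CPM of Fos and 662 CPM of Junb, against 5.56 and 19.9 CPM in the control library.

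**Figure D1:**
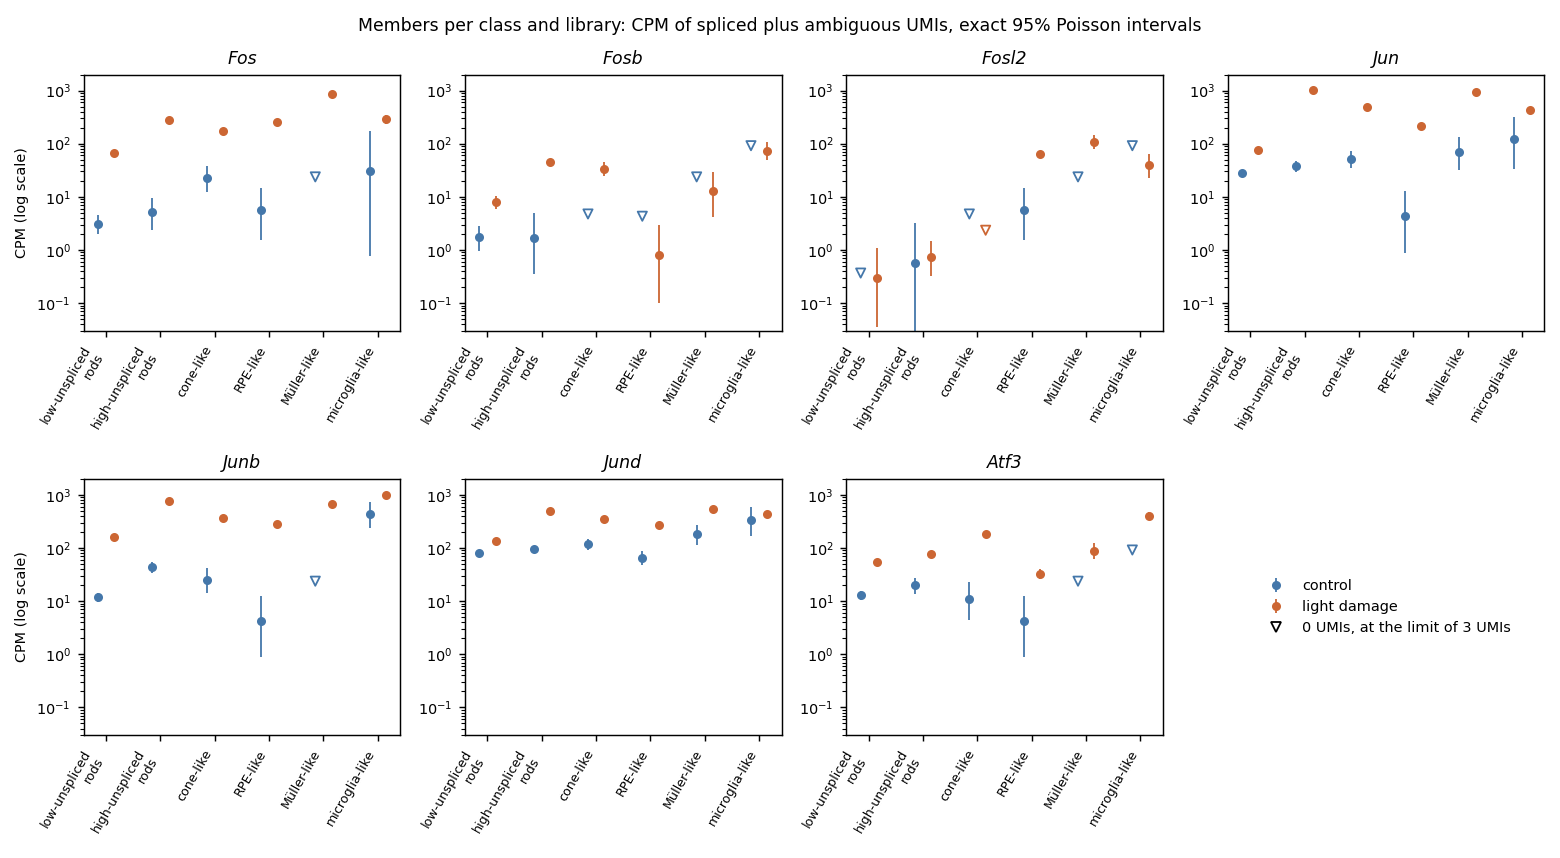
Level of each member in CPM on a log scale, by class and library (blue control, orange light damage), with exact 95% Poisson intervals; open triangles stand for 0 UMIs and sit at the limit of 3 UMIs. Light damage points lie above control points for Fos, Jun, Junb and Jund in every class, while Fosb and Fosl2 have levels near 0 in some classes.

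Fos, the founding member of the family and an obligate partner of Jun proteins, lies on chromosome 12 at 85473890 to 85477273 on the plus strand of GRCm38 and has 3 or 4 exons. In low-unspliced rods it had 25 UMIs, or 3.07 CPM, in the control and 442 UMIs, or 65.9 CPM, after light damage. In high-unspliced rods it went from 9 UMIs, 5.09 CPM, to 2980 UMIs, 278 CPM. The log2 ratio of light damage over control was 4.42 (3.84 to 5.07) in the former and 5.77 (4.85 to 6.90) in the latter. Cone-like droplets had 22.2 CPM in the control and 176 CPM after light damage, a log2 ratio of 2.98 (2.21 to 3.88). RPE-like droplets went from 4 UMIs, 5.75 CPM, to 640 UMIs, 261 CPM, a log2 ratio of 5.50 (4.14 to 7.38). Müller-like droplets had 0 of 126425 UMIs in the control, which allows up to 23.7 CPM, and 344 UMIs or 878 CPM after light damage, at least 37.0-fold higher against that limit. Microglia-like droplets had 1 UMI in the control and 110 UMIs, 291 CPM, after light damage, with a log2 ratio of 3.25 (0.74 to 8.57) that was 1.29 without droplets of at least 50% free RNA. In the light damage library Müller-like droplets thus held the highest level of Fos, 3.15-fold (2.81 to 3.53) that of high-unspliced rods. Of the 344 Müller-like UMIs 75, or 21.8%, came from 1 of 40 droplets, a concentration that the interval does not cover. Microglia-like droplets, high-unspliced rods and RPE-like droplets came next in level, at 291, 278 and 261 CPM. The steps from each of these to the next among them were within counting error, and low-unspliced rods were lowest. That order rests on totals without unspliced UMIs. With them included, Fos was 239 CPM (220 to 258) in RPE-like and 195 CPM (161 to 234) in microglia-like droplets. High-unspliced rods were then lower, at 134 CPM (129 to 139).

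Fosb, a Fos paralogue at chromosome 7, 19302696 to 19310051 on the minus strand, was highest after light damage in microglia-like droplets, high-unspliced rods and cone-like droplets. High-unspliced rods had 3 UMIs in the control and 480 UMIs, 44.8 CPM, after light damage, a log2 ratio of 4.72 (3.17 to 7.01). Low-unspliced rods had 14 UMIs, 1.72 CPM, and 53 UMIs, 7.90 CPM, a log2 ratio of 2.20 (1.33 to 3.17). Cone-like droplets went from 0 to 43 UMIs, 33.7 CPM, at least 7.08-fold higher. Microglia-like droplets had 0 control UMIs and 28 light damage UMIs, 74.0 CPM, but 3 UMIs in the small control sum would be 91.7 CPM, so no fold can be given. Müller-like droplets had 5 UMIs, 12.8 CPM. RPE-like droplets had 2 UMIs, 0.814 CPM, among 2456235, less than the 2.0 CPM expected there from free RNA alone.

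Fosl2, at chromosome 5, 32135801 to 32157842 on the plus strand, was distributed differently. RPE-like droplets went from 4 UMIs, 5.75 CPM, to 155 UMIs, 63.1 CPM, a log2 ratio of 3.46 (2.07 to 5.35). In the control 3 of those 4 UMIs came from a single droplet, and with droplets over 5% mitochondrial UMIs left out the log2 ratio was 5.39. Müller-like droplets went from 0 to 43 UMIs, 110 CPM, at least 4.62-fold higher, and microglia-like droplets had 0 and 15 UMIs, the latter 39.6 CPM. In rods Fosl2 stayed near the limit of detection, with 0 and 2 UMIs in low-unspliced and 1 and 8 UMIs in high-unspliced rods. Cone-like droplets had 0 UMIs in both libraries, which allows up to 2.35 CPM after light damage.

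By CPM, Fosb and Fosl2 therefore differed in opposite directions between high-unspliced rods and the RPE-like and Müller-like classes of the light damage library. Fosb was 55.1-fold (15.2 to 456) higher in high-unspliced rods than in RPE-like droplets and 3.51-fold (1.5 to 10.9) higher than in Müller-like droplets. Fosl2 was 84.4-fold (41.8 to 199) higher in RPE-like droplets than in high-unspliced rods and 147-fold (68.2 to 362) higher in Müller-like droplets than in high-unspliced rods. Against cone-like droplets Fosl2 was at least 26.8-fold higher in RPE-like and at least 46.7-fold higher in Müller-like droplets. Microglia-like droplets held both genes. Free RNA accounted for an expected 1.27% of the Fosl2 level in RPE-like and 1.1% of that in Müller-like droplets.

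**Figure D2:**
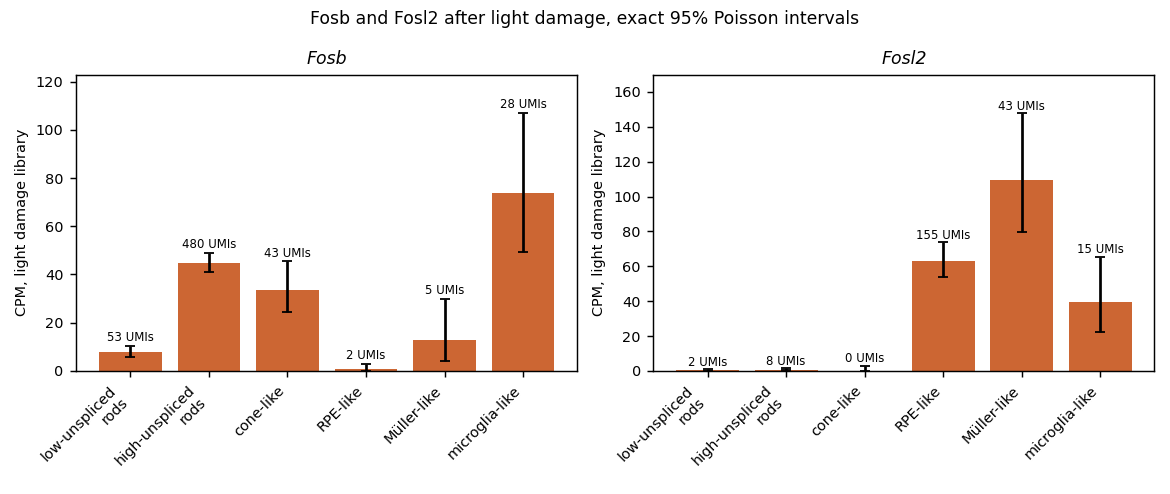
CPM of Fosb (left) and Fosl2 (right) in the 6 classes of the light damage library, with exact 95% Poisson intervals and the UMIs behind each bar. Fosb reached 44.8 CPM in high-unspliced rods and 0.814 CPM in RPE-like droplets, whereas Fosl2 reached 0.747 CPM in the former and 63.1 CPM in the latter.

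Jun, whose protein pairs with itself and with every Fos protein, is a gene of 1 exon on the minus strand of chromosome 4, from 95049034 to 95052222. It differed most between the rod classes. Low-unspliced rods had 228 UMIs, 28.0 CPM, in the control and 505 UMIs, 75.2 CPM, after light damage, a log2 ratio of 1.43 (1.2 to 1.66). High-unspliced rods had 67 UMIs, 37.9 CPM, and 10866 UMIs, 1015 CPM, a log2 ratio of 4.74 (4.40 to 5.11). Within the light damage library Jun was 13.5-fold (12.3 to 14.8) higher in high- than in low-unspliced rods, against 4.23-fold (3.82 to 4.68) for Fos and 1.40-fold (1.24 to 1.59) for Atf3. These folds leave unspliced UMIs out of the total. With them included, high- and low-unspliced rods held 482 and 70.3 CPM of Jun and 134 and 61.7 CPM of Fos. Atf3 was then lower in high- than in low-unspliced rods, at 43.1 (40.4 to 45.9) against 51.8 CPM (46.6 to 57.3). Cone-like droplets had 50.8 CPM in the control and 499 CPM after light damage, with 3.30 (2.79 to 3.86), and Müller-like droplets from 9 UMIs, 71.2 CPM, to 375 UMIs, 957 CPM, a log2 ratio of 3.75 (2.81 to 4.89). RPE-like droplets had 3 UMIs in the control, all in 1 droplet, and 533 UMIs, 217 CPM, after light damage, with a log2 ratio of 5.65 (4.10 to 7.93). Expected free RNA was 81.1% of that control level, and the ratio was 7.83 with it subtracted and 4.25 with a minimum of 1000 UMIs per droplet. In microglia-like droplets 4 UMIs, 122 CPM, stood against 162 UMIs, 428 CPM, a log2 ratio of 1.81 (0.42 to 3.70) that was 0.27 without droplets of at least 50% free RNA. High-unspliced rods and Müller-like droplets, the classes with the most Jun after light damage, did not differ beyond counting error, at a ratio of 1.06 (0.957 to 1.18). Junos, the antisense RNA that overlaps Jun, was counted on its own strand and had log2 ratios over all UMIs of 0.51 (0.11 to 0.94) in high-unspliced and -0.22 (-1.42 to 0.93) in low-unspliced rods.

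Junb, a weaker activator than Jun that competes with it for partners, lies at chromosome 8, 84974484 to 84978718 on the minus strand. Low-unspliced rods went from 97 UMIs, 11.9 CPM, to 1097 UMIs, 163 CPM, a log2 ratio of 3.78 (3.48 to 4.09), which makes Junb the Jun gene with the largest ratio there. High-unspliced rods went from 77 UMIs, 43.6 CPM, to 8119 UMIs, 758 CPM, with 4.12 (3.8 to 4.46), and cone-like droplets from 25.4 to 373 CPM, with 3.88 (3.16 to 4.70). RPE-like droplets had 3 and 684 UMIs, the latter 278 CPM, with a log2 ratio of 6.01 (4.46 to 8.29). Free RNA could make up 22.1% of the light damage level in RPE-like droplets, and with it subtracted the log2 ratio was 6.49. Müller-like droplets had 0 and 264 UMIs, 674 CPM, at least 28.4-fold higher. Control microglia-like droplets already held 14 UMIs, 428 CPM, and the 993 CPM after light damage gave a log2 ratio of 1.22 (0.45 to 2.10). Without droplets of at least 50% free RNA, which left 5 control droplets, that ratio was -0.12.

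Jund, the Jun gene that resting cells express, is a gene of 1 exon on chromosome 8, from 70698949 to 70700616 on the plus strand. It had the most UMIs of the members in every control class except the microglia-like one, and made up 58.0% of their UMIs in control low-unspliced rods and 72.6% in control RPE-like droplets. Low-unspliced rods had 648 and 909 UMIs, 79.5 and 135 CPM, a log2 ratio of 0.77 (0.62 to 0.92). High-unspliced rods had 95.1 and 490 CPM, with 2.36 (2.14 to 2.60). The ratio on the same scale was 1.60 (1.24 to 1.97) in cone-like, 2.09 (1.65 to 2.56) in RPE-like and 1.60 (0.98 to 2.29) in Müller-like droplets. In microglia-like droplets it was 0.37 (-0.51 to 1.40), so a difference was not detectable with 11 control UMIs, and with expected free RNA subtracted the value was -0.37. Jund had the smallest ratio of all members with a ratio in every class but the high-unspliced rods, where Atf3 was lower and Fosl2 had too few UMIs.

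Atf3, at chromosome 1, 191170296 to 191218039 on the minus strand, was highest in microglia-like droplets, as Fosb and Junb were, and next in cone-like droplets. After light damage it reached 399 CPM in microglia-like and 186 CPM in cone-like droplets, against 89.3 CPM in Müller-like droplets, 77.4 CPM in high-unspliced rods, 55.3 CPM in low-unspliced rods and 33.0 CPM in RPE-like droplets. Each class was above the next beyond counting error, except Müller-like droplets over high-unspliced rods, with a log2 difference of 0.21 (-0.33 to 0.69). With unspliced UMIs included, low-unspliced rods were above high-unspliced rods instead, at 51.8 against 43.1 CPM. Cone-like droplets exceeded high-unspliced rods 2.40-fold (2.07 to 2.78), whereas their Jun and Junb levels were 0.492-fold (0.454 to 0.533) and 0.492-fold (0.448 to 0.540) those of high-unspliced rods. These intervals do not cover UMIs concentrated in few droplets. Of the light damage cone-like droplets 1 held 136 Jun UMIs. The top 1%, rounded up, held 35.9% of Jun, 21.4% of Junb and 24.9% of Atf3 UMIs. Cone-like droplets went from 7 UMIs, 11.1 CPM, to 237 UMIs, a log2 ratio of 4.06 (3.00 to 5.39), and low- and high-unspliced rods from 105 to 371 and from 35 to 829 UMIs, with 2.10 (1.79 to 2.43) and 1.97 (1.48 to 2.5). The RPE-like log2 ratio was 2.93 (1.34 to 5.24). Müller-like droplets had 0 and 35 UMIs, at least 3.76-fold higher, and microglia-like droplets 0 and 151 UMIs, at least 4.35-fold higher. Without droplets of at least 50% free RNA the microglia-like bound was only 0.17 on the log2 scale.

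Counted by class among members with at least 10 UMIs over both libraries, with 0.5 UMIs added, 5 of 6 were at least 2-fold higher after light damage in low-unspliced rods, where 6.44% of 11055 genes were. Jund was the exception. In high-unspliced rods 6 of 6 were, against 10.4% of 13424 genes, in cone-like droplets 6 of 6 against 17.8%, in RPE-like droplets 6 of 6 against 15.1% and in Müller-like droplets 6 of 6 against 22.9%. In microglia-like droplets 6 of 7 were, against 34.2% of 6141 genes, and Fosb and Fosl2 enter that count through their 0 control UMIs although no fold could be given for them. The members that had under 10 UMIs were Fosl2 in rods and cone-like droplets and Fosb in RPE-like and Müller-like droplets. The median log2 ratio of the counted members was 2.13 in low-unspliced and 4.31 in high-unspliced rods, beside 0.16 and 0.05 over all genes counted there. No counted member was at least 2-fold lower in any class, where 2.42%, 7.74%, 5.58%, 7.07%, 19.9% and 19.6% of all genes were, from low-unspliced rods to microglia-like droplets. These counts describe genes chosen for such differences.

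Grouping all rods by the unspliced share of their UMIs showed where the level of each member was reached. In the light damage library Jun was at 54.9 CPM in rods with under 5% unspliced UMIs, 114 CPM at 10 to 20% and 585 CPM at 20 to 30%. It was highest at 30 to 40%, with 1564 CPM (1508 to 1622) over 330 droplets, and fell with higher shares to 200 CPM (162 to 245) at 70% and above. Fos and Fosb were also highest at 30 to 40%, at 399 and 76.4 CPM, as was Jund at 734 CPM. Junb and Atf3 were highest at 40 to 50%, at 962 and 97.5 CPM, where their intervals overlapped those at 30 to 40%. Fos was 86.3 CPM (61.9 to 117) in the rods with 70% unspliced UMIs and above, an interval that overlaps that of 66.5 CPM (57.2 to 76.8) at 5 to 10%. With unspliced UMIs included, Fos was 24.6 and 62.5 CPM in these groups. Junb and Atf3 were then highest at 30 to 40%, at 607 and 63.5 CPM. The control library showed no such peak for Jun, Fos or Junb. Jun lay between 4.02 and 67.4 CPM in all 9 groups of control rods, Fos between 0 and 12.1 CPM and Junb between 7.46 and 68.3 CPM. Control Jund, in contrast, reached 144 CPM (105 to 193) at 40 to 50%, within the 131 to 144 CPM of light damage rods under 20%. With unspliced UMIs included, control Jund was 78.7 CPM at 40 to 50%, below the 125 CPM of light damage rods under 5%. Moving the split of rods from 25% to 40% raised the Jun log2 ratio of low-unspliced rods from 1.43 to 3.89 and that of Fosb from 2.20 to 3.88.

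**Figure D3:**
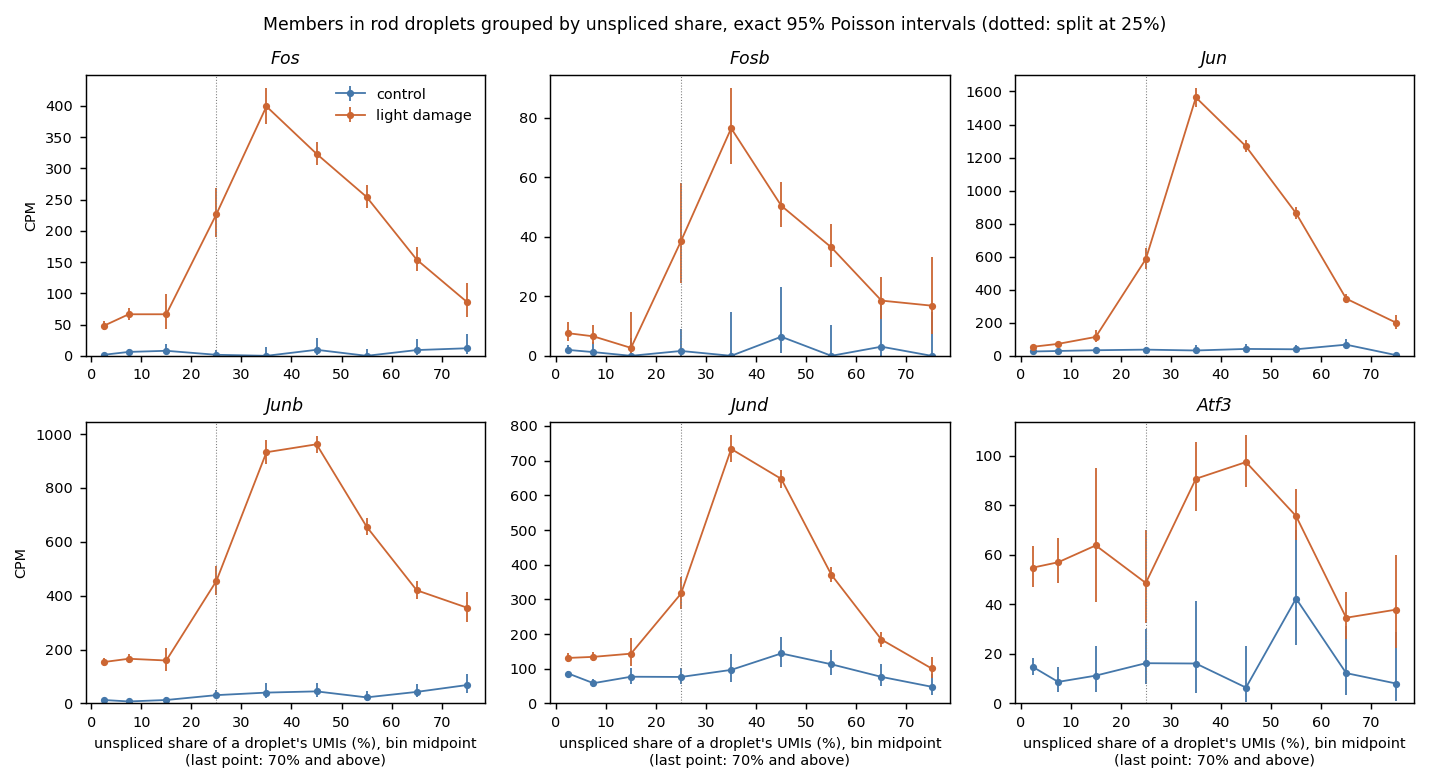
CPM of 6 members in rods of the control (blue) and light damage (orange) libraries, grouped by the unspliced share of each droplet's UMIs, with exact 95% Poisson intervals. Light damage values are highest between 30 and 50% unspliced UMIs, with Jun at 1564 CPM. Control values of Jun, Fos and Junb reach at most 67.4, 12.1 and 68.3 CPM, while control Jund reaches 144 CPM at 40 to 50%.

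Unspliced UMIs of the members themselves were few. Jun and Jund have 1 exon in the annotation and no intron, and neither had an unspliced UMI in any class. In light damage high-unspliced rods, in which 52.5% of all UMIs were unspliced, the share was 1.39% (1.00 to 1.87) for Fos with 42 of 3022 UMIs, 0.415% (0.050 to 1.49) for Fosb, 3.26% (2.89 to 3.67) for Junb and 14.5% (12.4 to 16.9) for Atf3 with 141 of 970. Fosl2 had 2 unspliced UMIs of 10. In light damage Müller-like droplets the share of Atf3 was 20.5% (9.80 to 35.3), and in microglia-like droplets 27.4% (21.5 to 34). Its share was 0.269% (0.0068 to 1.49) in light damage low-unspliced rods and 4.05% (1.96 to 7.32) in cone-like droplets. Fos had 0 unspliced UMIs of 640 in light damage RPE-like droplets, with an interval that reaches 0.575%. Including unspliced UMIs moved the log2 ratio of Fos in high-unspliced rods from 5.77 to 5.89 and that of Atf3 from 1.97 to 2.03.

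Single droplets were compared after thinning each to 1000 spliced and ambiguous UMIs, so that depth does not set the share in which a member is found. Shallower droplets were left out, 189 of the control and 383 of the light damage high-unspliced rods. Among light damage high-unspliced rods 38.2% (36.3 to 40.0) had Jun and 38.4% (36.5 to 40.2) had Junb, against 3.16% (1.91 to 4.88) and 2.66% (1.53 to 4.28) in the control. Without thinning these shares were 49.9% and 56.5%, against 6.07% and 5.94%. Fos was found in 17.2% (15.8 to 18.6) and 0.997% (0.367 to 2.16). In low-unspliced rods Junb was found in 12.5% (11.1 to 14.1) after light damage and 0.651% (0.373 to 1.06) in the control, while Jun was found in 5.67% (4.68 to 6.81) and 2.44% (1.87 to 3.13). Of the Müller-like droplets 27.5% (14.6 to 43.9) had Fos, and of the RPE-like droplets 14.9% (11.1 to 19.4). Fosb was found in 0 of 309 thinned RPE-like droplets, with an interval that reaches 1.19%, and its CPM there was below that expected from free RNA. Fos was spread unevenly, since the 1% of light damage high-unspliced rods with the most Fos held 25% of its UMIs and 1 droplet held 51, whereas for Jun the corresponding share was 11.4%.

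Members were also found together. In light damage high-unspliced rods 17.1% (15.7 to 18.6) of thinned droplets had 3 or more members and 30.4% had none, whereas in the control 0 of 602 had 3 or more and 84.6% had none. The share with 3 or more was 0.998% (0.602 to 1.55) in light damage low-unspliced rods, 7.12% (4.52 to 10.6) in RPE-like, 11.7% (6.17 to 19.5) in cone-like, 30.0% (16.6 to 46.5) in Müller-like and 26.7% (14.6 to 41.9) in microglia-like droplets, and 0 in each control class. For 0 of 31 control Müller-like droplets the interval reaches 11.2%. For 0 of 12 control microglia-like droplets it reaches 26.5%, which overlaps the light damage interval. Within light damage high-unspliced rods Fosb was found in 7.11% (4.95 to 9.84) of droplets with Fos and in 2.19% (1.62 to 2.88) of those without. Fos was found in 23.4% (20.8 to 26.1) of droplets with Jun and 13.3% (11.8 to 15.1) of those without. Jund was found in 44.3% (41.2 to 47.4) of droplets with Jun and in 19.7% (17.8 to 21.7) of those without. Droplets of 1 library share its mice and their place on the scale of unspliced share, so these shares describe the library and are no test.

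**Figure D4:**
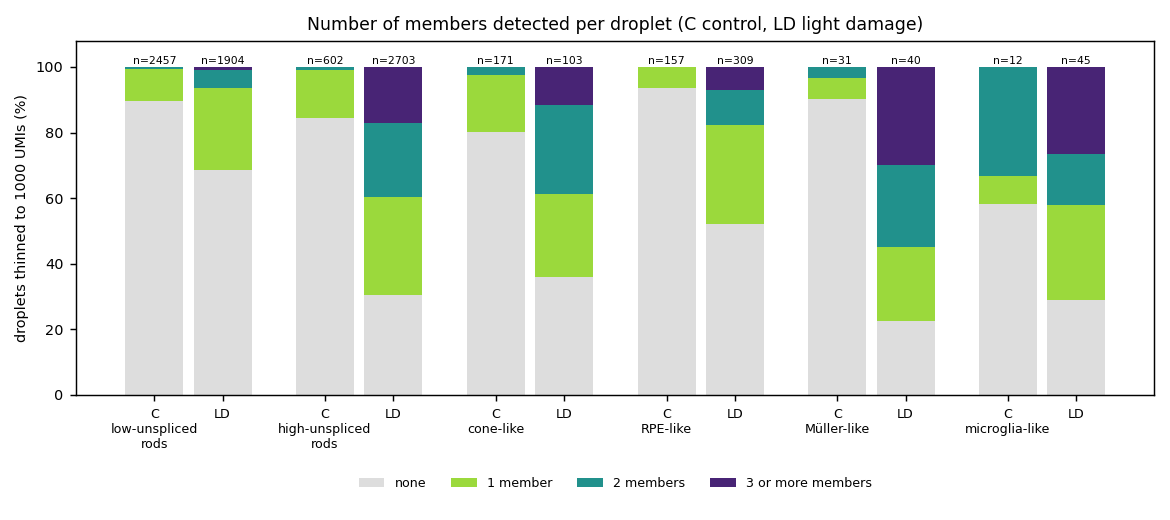
Share of droplets in which none, 1, 2 or 3 and more members were detected after thinning to 1000 UMIs, for control (C) and light damage (LD) droplets of each class, with the number of droplets above each bar. Droplets with 3 or more members make up 17.1% of light damage high-unspliced rods and 30.0% of light damage Müller-like droplets, and none in the control.

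Other partners of AP-1 were counted from a list of 10 genes. Between 4 and 6 of them had at least 10 UMIs in a class, and 2 to 4 of those were at least 2-fold higher after light damage, with none lower. They were 2 of 4 in low-unspliced rods, 3 of 6 in high-unspliced rods and 2 of 4 each in cone-like and RPE-like droplets. Over all genes the shares were 6.44%, 10.4%, 17.8%, 15.1%, 22.9% and 34.2%, from low-unspliced rods to microglia-like droplets. Fosl1, which encodes the Fos protein Fra-1, had 260 UMIs or 663 CPM in light damage Müller-like droplets and 0 in the control, at least 28.0-fold higher, while the light damage library held 4.20 CPM of it in high-unspliced rods and 1.63 CPM in RPE-like droplets. Maff, a small Maf protein, had 0 and 143 UMIs in RPE-like droplets, 58.2 CPM and at least 13.5-fold higher. Atf7, a relative of Atf2, had log2 ratios of 1.19 (0.91 to 1.48) in low-unspliced rods, 1.09 (0.87 to 1.31) in high-unspliced rods and 2.07 (1.40 to 2.82) in cone-like droplets. Of 14 upstream kinases and factors, among them the JNK and ERK genes, none was 2-fold higher in either rod class, and 2 were in each other class, such as Map3k1, a kinase upstream of JNK, in cone-like (1.2, 0.80 to 1.61) and RPE-like droplets (2.01, 1.09 to 3.1). The 2 genes higher in each of these classes stood among 13 in cone-like, 13 in RPE-like, 12 in Müller-like and 8 in microglia-like droplets, where 17.8%, 15.1%, 22.9% and 34.2% of all genes were as much higher, so these shares were near or below those of all genes. Lower by at least 2-fold were 1 of 14 in high-unspliced rods, 3 of 13 in RPE-like, 3 of 12 in Müller-like and 2 of 8 in microglia-like droplets, beside 7.74%, 7.07%, 19.9% and 19.6% of all genes.

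MAP kinase phosphatases, which switch off the kinases that activate AP-1, were at least 2-fold higher for 1 of 7 genes in low-unspliced rods, 5 of 9 in high-unspliced rods, 3 of 6 in cone-like, 4 of 9 in RPE-like, 7 of 8 in Müller-like and 4 of 7 in microglia-like droplets. The shares of all genes in the same order were 6.44%, 10.4%, 17.8%, 15.1%, 22.9% and 34.2%. Dusp5, which acts on ERK, had a log2 ratio of 2.85 (2.23 to 3.55) in high-unspliced rods and 2.98 (1.81 to 4.46) in cone-like droplets. Dusp1 was 2.40 (1.61 to 3.32) in high-unspliced rods and -0.09 (-0.92 to 0.73) in low-unspliced rods. Lower were 1 gene, Dusp6, in high-unspliced rods on 4 control UMIs and 3 in RPE-like droplets, among them Dusp4 and Dusp6 at -1.56 (-2.07 to -1.05) and -1.03 (-1.31 to -0.75).

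Among the lists other than the members, genes known as AP-1 targets had the largest medians outside the rods. Of those with enough UMIs 8 of 10 were at least 2-fold higher in RPE-like, 9 of 9 in Müller-like and 8 of 9 in microglia-like droplets, with median log2 ratios of 3.36, 5.98 and 2.40 beside 0.08, -0.02 and 0.31 for all genes. Over all genes 15.1%, 22.9% and 34.2% were as much higher in these classes. In cone-like droplets 2 of 3 genes of the list were, against 17.8% of all genes, with a median of 1.52 beside 0.21. The genes differed between the classes. The matrix protease Mmp3 had 309 UMIs, 126 CPM, and the cytokine Il6 221 UMIs, 90.0 CPM, in light damage RPE-like droplets and 0 in the control, at least 29.2-fold and 20.9-fold higher, whereas Müller-like droplets had 0 and 3 UMIs of them. Lif, a cytokine that protects photoreceptors, had 332 UMIs, 847 CPM, in light damage Müller-like droplets, at least 35.7-fold higher, and 4.07 CPM in RPE-like droplets. Spp1, which encodes osteopontin, had 896 UMIs, 2367 CPM, in microglia-like droplets, at least 25.8-fold higher. Tnfrsf12a, the receptor of TWEAK, was higher in cone-like (3.85, 2.60 to 5.50), RPE-like (at least 24.2-fold) and Müller-like droplets (at least 30.4-fold), and had a log2 ratio of -0.26 (-0.83 to 0.29) in low-unspliced rods. In low- and high-unspliced rods 3 of 5 and 5 of 10 genes of the list were 2-fold higher, against 6.44% and 10.4% of all genes. Hmox1, heme oxygenase, was at 1.5 (0.32 to 2.81) in low-unspliced rods, beside 4.32 (2.95 to 6.20) in RPE-like droplets.

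Of 12 other early response genes 4 of 9 were at least 2-fold higher in low-unspliced and 8 of 10 in high-unspliced rods, 5 of 8 in cone-like, 8 of 10 in RPE-like, 10 of 10 in Müller-like and 7 of 11 in microglia-like droplets, with none lower. Over all genes the shares in that order were 6.44%, 10.4%, 17.8%, 15.1%, 22.9% and 34.2%. Gadd45b, a growth arrest gene, had log2 ratios of 3.60 (3.15 to 4.07) and 3.44 (2.68 to 4.31) in low- and high-unspliced rods. Zfp36, whose protein shortens the life of early response mRNAs, went from 4 to 433 UMIs in RPE-like droplets, a log2 ratio of 4.94 (3.57 to 6.82). Ier2 was 2.03 (1.69 to 2.40) in high-unspliced rods.

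The genes whose level was most like that of Fos over the 12 groups of class and library were Ddx3y, with a Pearson correlation of 0.954 of log2(CPM + 10), Eif5 with 0.917, Gadd45b with 0.905, Egr1 with 0.901 and Jun with 0.893. Those most like Jun were Brd2 with 0.964, Jund with 0.958, Slc38a2 with 0.926, Stat3 with 0.914 and Ier2 with 0.907. These correlations are a description over 11154 genes, and the 12 groups share 2 libraries. Ddx3y lies on the Y chromosome and had 339 UMIs in light damage against 31 in control low-unspliced rods, so the gene most like Fos is one that differs with the sex of the pools. The part of sex in the levels of the members was not tested.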

How the data were processed

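The authors sequenced 10x Genomics v3.1 libraries, demultiplexed with Cell Ranger 7.0.1, mapped reads to a spliced and intronic index of mm10 with salmon 1.10.1 and alevin-fry 0.8.1, kept reads of the forward strand alone, and deposited UMI counts of spliced, unspliced and ambiguous molecules for every barcode with a read. The control library held 30605284 UMIs over 542576 barcodes and the light damage library 54413601 over 944146; 7 barcodes above the minimum were shared.

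Genes were named from GENCODE vM21 (32235 of 32285). Droplets were kept with at least 1464 (control) or 1614 UMIs (light damage), the inflection points, and under 10% mitochondrial UMIs, and those with the highest scrublet scores, 0.8% per 1000 droplets, were left out as doublets (114 and 276) since the automatic threshold called 1 and 0. This left 3669 and 5593. A class needed 3 detected markers of its list, and rods a marker share of at least 2%; these limits were set after the markers' distributions had been seen. Exactly 3 markers were found in 39 of 171 control cone-like and 10 of 40 light damage Müller-like droplets. Between 20 and 30% unspliced lay 142 control and 57 light damage rods. Droplets outside the 6 classes (bipolar- or amacrine-like, red blood cell, endothelial, mixed, unassigned) were not used.

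The members and gene lists were chosen with earlier results of these data known; the lists of partners, kinases, phosphatases, targets and early genes follow general knowledge and hold 10, 14, 10, 15 and 12 genes. All 7 members are named, and of each other list up to 3 genes per class with at least 10 UMIs and a 2-fold ratio, by the interval end nearest 0, with their values in other classes beside them; Junos, Xist and values outside that rule, such as those of Fosl1 and Lif in classes where they are low, were chosen after they were seen. Intervals, all at 95%, are Poisson for CPM, Clopper-Pearson for shares and, for log2 ratios, binomial given the UMIs of both libraries. Where the control held 0 UMIs the fold is a lower bound, with the control set to 3 UMIs in the class. With 1 library per condition no test was made. On counts simulated as Poisson with 200 changed genes, the interval contained the true value for 96.5% of these in low-unspliced rods (11055 genes) and 93.5% in high-unspliced rods (13424 genes). The intervals assume such counts, so this checks the computation alone. It cannot show how the intervals hold for UMIs concentrated in few droplets. The 12 alternatives to the ratios changed the droplet filters, UMI blocks, totals, free RNA and rod split, or replaced the classes by Leiden clusters without the members. Intervals were computed with scipy 1.17.1 in Python 3.11.15, and droplets clustered with scanpy 1.11.5 and leidenalg 0.10.2.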

Additional observations from a re-analysis of the deposited data

Results flagged for a closer look

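Among the genes of the lists, 2 went in opposite directions in 2 classes, by at least 2-fold and with intervals that leave out 0. Mapk8, which encodes the kinase JNK1 that phosphorylates Jun, had a log2 ratio of light damage over control of -1.15 in RPE-like droplets, from 17 UMIs (24.5 CPM) to 27 UMIs (11 CPM), while Müller-like droplets had 0 control and 22 light damage UMIs. Dusp6, a phosphatase of ERK, had a log2 ratio of -1.03 in RPE-like droplets, from 243 to 119 CPM, and of 4.01 in Müller-like droplets, from 1 to 50 UMIs. With 1 library per condition the difference between the classes was not tested. None of the members themselves went in opposite directions.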

How the results depend on the processing

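No paired analysis was possible because each condition is 1 library, so neither a replicate block nor leaving out a replicate can be fitted. Of the members' log2 ratios under the 12 alternatives, 413 stayed within the counting interval of the main value, 16 moved out of it in the same direction and 1 that was at least 2-fold reversed: Junb in microglia-like droplets, at -0.12 without droplets of at least 50% free RNA, where 5 control droplets were left. The ratio of Jund in microglia-like droplets, 0.37 and under 2-fold, also changed sign within its interval, to -0.37 with free RNA subtracted and -0.01 with a mitochondrial limit of 5%. The number of members at least 2-fold higher was within 1.5 times of its main value in 69 recounts and not in 3. In microglia-like droplets it was 6 and became 3 with a minimum of 1000 UMIs, 3 with free RNA subtracted and 2 without droplets of at least 50% free RNA, so the microglia-like values rest on very few control UMIs. With at least 50 UMIs per gene the share of all genes at least 2-fold higher was 3.24% in low-unspliced rods and 11.6% in cone-like droplets. Calls over the 6 classes then numbered 10 for the other partners in place of 16, 3 in place of 8 for upstream kinases and factors, 13 in place of 24 for phosphatases and 19 in place of 35 for known targets. With log2(CPM + 1), 3 of the 5 genes most like Fos were shared with the main list. Splitting rods at 40% moved 5 ratios of low-unspliced rods upward, to 5.61 for Fos, 3.88 for Fosb, 3.89 for Jun, 4.62 for Junb and 1.77 for Jund. Control depth in Müller-like and microglia-like droplets limits what can be seen there to 23.7 and 91.7 CPM.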
